A study of Mus musculus with 6 samples.

Results

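Transcript levels of 10 genes for the making and sensing of prostaglandins and leukotrienes were examined in activated lung ILC2 with and without stimulation of GITR. The genes were taken by symbol: the receptor genes Ptgdr2, Ptgir, Ptger2, Ptger4 and Cysltr1 and the enzyme genes Ptgs1, Ptgs2, Hpgds, Alox5 and Ltc4s. All 10 were among the 23183 genes listed in each table. ILC2 are lymphocytes without antigen receptors that release type 2 cytokines. Wild-type primary ILC2 from mouse lung were cultured for 24 h with IL-2, IL-7 and IL-33, each at 10 ng/ml. They also received either IgG2b, an isotype control antibody (3 libraries), or the antibody DTA-1 (3 libraries), which stimulates GITR, a costimulatory receptor of the TNF receptor family. Both groups had the cytokines, and no group was left without them. The labels do not state the age or number of the mice or how the cells were sorted.

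Arachidonic acid, released from membranes by phospholipases, feeds both pathways. Cyclooxygenases convert it to prostaglandin H2, which terminal synthases turn into prostaglandins D2, E2 and I2 and thromboxane. 5-lipoxygenase with its activating protein starts the leukotriene branch, which ends in leukotriene B4 or the cysteinyl leukotrienes. In the lung, mast cells and macrophages are classical sources. ILC2 are known to be driven by prostaglandin D2 and cysteinyl leukotrienes and to be held back by prostaglandins E2 and I2. Of the receptors for prostaglandins E2 and I2, EP2, EP4 and IP raise cAMP.

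Levels are in FPKM, fragments scaled to transcript length and library depth, so they can be compared between genes. Depth read from the steps between low values was between about 18700000 and 21000000 fragments per library. Isotype replicate 2, isotype replicate 1 and DTA-1 replicate 1 were the most distinct libraries, holding the highest or lowest value of the 6 libraries for 56.2%, 44.3% and 41.6% of tested genes, against 14.2 to 22.6% for the other libraries. All 13 fixed ILC2 markers were tested, among them Gata3 (118 to 212 FPKM). Some lay apart by group without passing the adjusted limma test: mean Il13 was 2326 FPKM with the isotype and 5422 FPKM with DTA-1, mean Klrg1 97.2 and 34.1 FPKM, and mean Il1rl1 253 and 182 FPKM, each without overlap. Of 81 markers of 13 other cell types or groups of types, 70 stayed under 1 FPKM in every library. The highest of the others was Pecam1, from the endothelial list, at 19.9 to 43.8 FPKM. The other 4 of the 5 endothelial markers stayed under 1 FPKM in every library, with Cldn5 and Emcn listed at 0 throughout. Tnfrsf18, the gene of GITR, measured 170.5 ± 27.8 FPKM with the isotype and 203 ± 46.8 FPKM with DTA-1 (SD, n = 3 per group). Whether replicates came from different mice or cultures is not stated, so the p-values describe the spread between these libraries, which may be technical. In bulk RNA, a lower level in each cell and a smaller share of cells with the transcript cannot be told apart.

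The prostaglandin E2 receptor genes Ptger4 and Ptger2 were higher with DTA-1 in every library, and the cysteinyl leukotriene receptor gene Cysltr1 was lower in every library. Ptger1, another prostaglandin E2 receptor gene, is not a member, and its groups overlapped. It measured 18.8 ± 3.99 FPKM with the isotype and 19.2 ± 1.16 FPKM with DTA-1 (SD). The prostacyclin receptor gene Ptgir and the 5-lipoxygenase gene Alox5 were well expressed at nearly equal means in both groups. Ptgdr2, Ptgs1 and Ltc4s were near or at the floor of 3 fragments in every library, and Ptgs2 and Hpgds were low and uneven. None of the 6 members tested passed limma's test with p adjusted over all 10501 genes tested. Over all genes, 0.0286% were called higher and 0.00952% lower by that test. At an unadjusted p under 0.05, Ptger4 was the single member higher and Cysltr1 the single member lower, where 6.22% of all genes tested were higher and 7.73% lower. Without overlap between the groups, 2 members were higher and 1 was lower, where 11.2% and 10.5% of all genes tested were. The median log2 fold change of the 6 members was 0.06, against 0.01 over all genes tested. The other 4 members did not reach 1 FPKM in 3 libraries and were not tested.

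**Figure D1:**
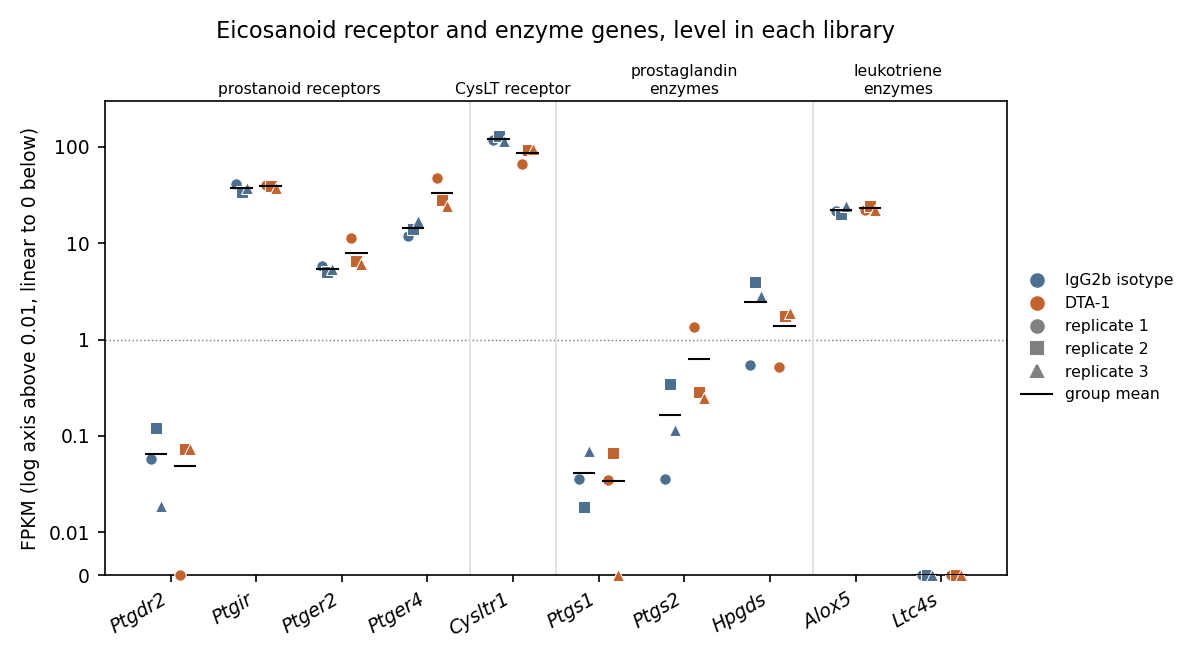
FPKM of the 10 genes in each library (log axis above 0.01, linear down to 0), ordered by role, with isotype libraries in blue, DTA-1 libraries in orange, a symbol for each replicate number and a bar for the group mean. Cysltr1 lies highest, from 67.0 to 130 FPKM, Ptgdr2 and Ptgs1 lie below 0.2 FPKM, and Ltc4s is listed at 0 in every library. The dotted line is 1 FPKM, the level needed in 3 libraries for a test.

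Ptger4 encodes EP4, a receptor for prostaglandin E2 that couples to Gs and raises cAMP. The gene spans bases 5206661 to 5244187 of chromosome 15 (GENCODE M21 on GRCm38, minus strand), and its longest basic transcript has 3 exons. It measured 11.8, 14.2 and 16.9 FPKM in isotype replicates 1, 2 and 3 and 47.3, 28.0 and 24.2 FPKM in DTA-1 replicates 1, 2 and 3. All DTA-1 libraries lay above all isotype libraries, and DTA-1 replicate 1 lay far above the other 2. The means were 14.28 ± 2.58 and 33.2 ± 12.4 FPKM (SD, n = 3 each), a ratio of 2.32. On the log2(FPKM + 1) scale, which understates changes of low genes, the fold change was 1.12 ± 0.24 (SE), with a 95% interval of 0.56 to 1.68. The limma adjusted p was 0.121, and the difference ranked 46th among increases of the 10501 genes tested. Without DTA-1 replicate 1 the log2 fold change was 0.84 (limma adjusted p = 0.257), and without both replicates numbered 1 it was 0.71 (adjusted p = 0.242). Part of the gene overlaps Ttc33 on the opposite strand, and the use of strand in the counting is not given. Ttc33 itself measured 16.4, 26.5 and 17.9 FPKM in the isotype libraries and 18.5, 17.3 and 18.5 FPKM in the DTA-1 libraries, with overlapping groups. Its part in the Ptger4 values was not tested.

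Ptger2 encodes EP2, the other Gs-coupled receptor for prostaglandin E2 (chromosome 14, 44988195 to 45003820, plus strand). Its levels were 5.78, 4.99 and 5.40 FPKM in isotype replicates 1, 2 and 3 and 11.3, 6.50 and 6.07 FPKM in DTA-1 replicates 1, 2 and 3. The groups did not overlap, but DTA-1 replicates 2 and 3 stood only just above the highest isotype library. The log2 fold change was 0.44 ± 0.21, with a 95% interval of -0.04 to 0.93 and a limma adjusted p = 0.402. It was 0.19 without DTA-1 replicate 1, so most of the difference lay in that library.

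Ptgir encodes IP, the prostacyclin receptor, which also couples to Gs (chromosome 7, 16906490 to 16910905, plus strand). It measured 41.5, 33.6 and 37.2 FPKM with the isotype and 40.5, 39.4 and 37.1 FPKM with DTA-1, in replicate order. The ranges overlapped throughout, and the isotype libraries spread more widely than the DTA-1 libraries. The log2 fold change was 0.06 ± 0.12, and its 95% interval of -0.21 to 0.33 leaves out a change as large as the estimate for Ptger4. Ptgir was the most abundant of the 3 Gs-coupled receptor genes in every isotype library and in DTA-1 replicates 2 and 3, while Ptger4 was above it in DTA-1 replicate 1. Ptger4 made up 19.9, 26.9 and 28.4% of the summed FPKM of Ptgir, Ptger2 and Ptger4 in the isotype libraries and 47.7, 37.9 and 36.0% in the DTA-1 libraries, in replicate order. The summed level was 52.7 to 59.5 FPKM with the isotype and 67.4 to 99.1 FPKM with DTA-1. These shares and sums were chosen after the values were seen and are given without a test.

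**Figure D2:**
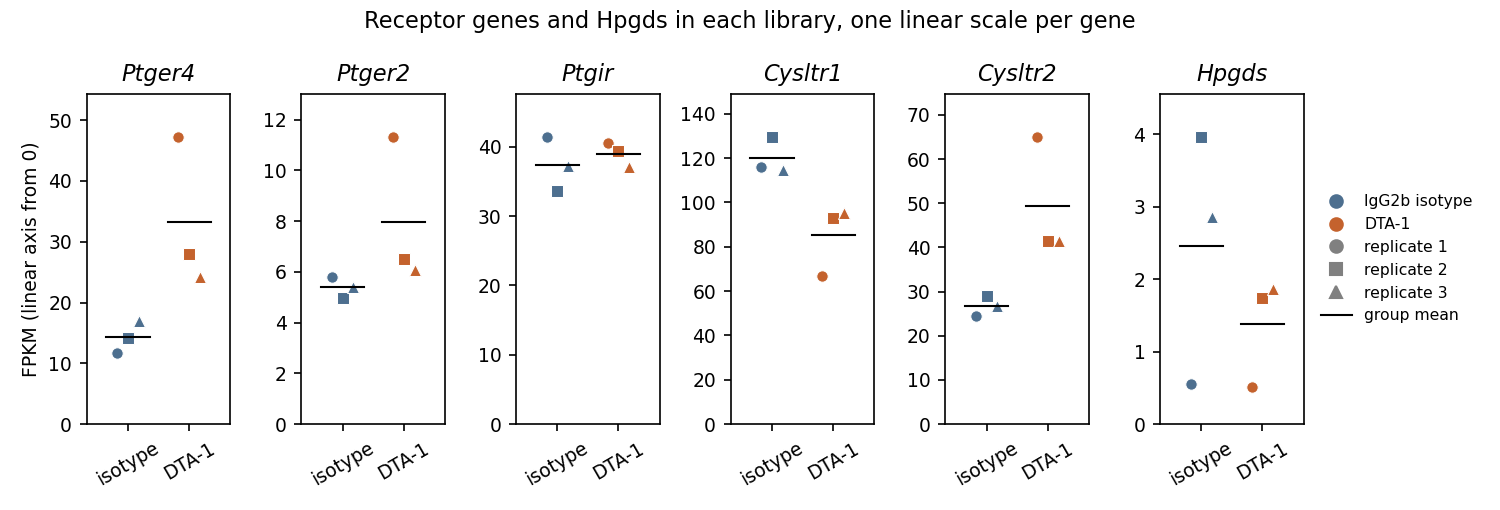
FPKM of 5 receptor genes and Hpgds in each library, on a linear axis from 0 with its own scale for each gene (isotype in blue, DTA-1 in orange, a symbol for each replicate number, bars for group means). Ptger4, Ptger2 and Cysltr2 are higher and Cysltr1 is lower in all DTA-1 libraries, with DTA-1 replicate 1 farthest from the isotype libraries for each of these genes.

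The promoters of the 3 Gs-coupled receptor genes are shown to set the genes that were higher with DTA-1 beside Ptgir. The sequences are the 250 bases before the RefSeq start (GRCm38.p6), written 5′ to 3′ on the gene's strand. Ptger4 is at chr15:5244188-5244437 on the minus strand, Ptger2 at chr14:44987861-44988110 on the plus strand and Ptgir at chr7:16906240-16906489 on the plus strand. Capitals mark matches to any motif searched, on either strand.
Ptger4: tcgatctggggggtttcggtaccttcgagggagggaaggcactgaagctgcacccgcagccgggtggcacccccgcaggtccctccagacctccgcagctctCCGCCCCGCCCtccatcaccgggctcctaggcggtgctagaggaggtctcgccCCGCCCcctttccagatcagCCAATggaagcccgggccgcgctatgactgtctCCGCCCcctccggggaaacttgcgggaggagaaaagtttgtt
Ptger2: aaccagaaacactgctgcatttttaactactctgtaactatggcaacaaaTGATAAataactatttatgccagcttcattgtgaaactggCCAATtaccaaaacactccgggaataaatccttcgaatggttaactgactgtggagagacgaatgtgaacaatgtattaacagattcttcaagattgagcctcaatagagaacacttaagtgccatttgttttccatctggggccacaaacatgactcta
Ptgir: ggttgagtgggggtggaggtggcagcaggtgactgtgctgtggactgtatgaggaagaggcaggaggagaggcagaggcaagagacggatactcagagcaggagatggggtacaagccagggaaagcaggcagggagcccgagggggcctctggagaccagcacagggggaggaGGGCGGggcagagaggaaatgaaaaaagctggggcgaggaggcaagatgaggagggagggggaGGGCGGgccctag
One motif was the GC box, GGGCGG, where factors of the Sp family bind. Next were the CCAAT box, spelled by its name, and the TATA box, spelled TATAAA. The core of the cAMP response element, or CRE, was spelled TGACG. For AP-1 the site TGACTCA was searched together with its reverse complement. The GATA motif began with A or T, followed by the letters GATA and then by A or G. NF-kB was searched by its consensus. The Ptger4 promoter had a GC content of 66.8% with 4 GC boxes, of which 2 overlap, and 1 CCAAT box starting 75 bases before the start. The Ptgir promoter, at 63.6%, had 2 GC boxes. The Ptger2 promoter, at 38.0%, had no GC box but a CCAAT match 160 bases and a GATA match 200 bases before the start. The search covered 300 bases, with 50 bases past the start that are not printed. GC boxes occur in 35.7% of the 32851 RefSeq windows of that length, CCAAT in 37.4%, GATA in 29.8%, CRE cores in 20.8%, TATA boxes in 13.6%, AP-1 in 5.20% and NF-kB in 4.51%. None of the 3 windows held a CRE core, an AP-1 match, an NF-kB match or a TATA box in these letters. Of the 9 members with a RefSeq window, Ptgs2 alone had a CRE core, 13 bases past its start.

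Ptgdr2 encodes CRTH2, the Gi-coupled receptor by which prostaglandin D2 drives ILC2 (chromosome 19, 10937160 to 10942511). It was nearly absent from these cultures in both groups, at 0.0581, 0.120 and 0.0189 FPKM in isotype replicates 1, 2 and 3. In the DTA-1 libraries it was listed at 0, 0.0731 and 0.0729 FPKM, which overlaps the isotype range. At the estimated depth these values correspond to 3, 6 and 1 fragments and to 0, 4 and 4 fragments. A floor of 3 fragments lies at 0.054 to 0.061 FPKM for this transcript, so no difference between the antibodies was detectable at this depth. Ptgdr, the gene of the other prostaglandin D2 receptor DP1, was also low, between 0.0632 and 0.172 FPKM in all 6 libraries.

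Cysltr1 encodes CysLT1, the main receptor for leukotriene D4, and was the most abundant of the 10 genes in both groups. It lies on chromosome X, 106574346 to 106603679, on the minus strand. It measured 116, 130 and 115 FPKM in isotype replicates 1, 2 and 3 and 67.0, 93.0 and 95.4 FPKM in DTA-1 replicates 1, 2 and 3. Every DTA-1 library was below every isotype library, and DTA-1 replicate 1 was again the most distant. The means were 120.2 ± 8.22 and 85.1 ± 15.7 FPKM (SD, n = 3 each), a ratio of 0.708. The log2 fold change was -0.51 ± 0.15, with a 95% interval of -0.86 to -0.16 and a limma adjusted p = 0.197. It was -0.35 without DTA-1 replicate 1 and between -0.45 and -0.60 with each other library left out. Gm5127 overlaps Cysltr1 on the opposite strand and was listed at 2.57 to 6.81 FPKM. Of 13 lists of markers of other cell types, 5 had summed levels that were also lower in every DTA-1 library. The sums of the other lists overlapped between groups. Among single genes tested, 10.5% were lower without overlap, and no such share was computed for sums of lists. Few markers in the 5 lists reached 1 FPKM in 3 libraries. They were Cd3g and Lck (T cell), Cd68 and Xcr1 (macrophage and dendritic cell), Epcam (epithelial) and Ccr3 (eosinophil), with none for basophils. Ccr3 reached 1 FPKM in the isotype libraries alone, and 4 of the 6 eosinophil markers were listed at 0 throughout. The T cell sum was 15.8 to 17.2 FPKM with the isotype and 11.7 to 12.2 FPKM with DTA-1, and the macrophage and dendritic cell sum 6.63 to 7.36 and 4.55 to 4.95 FPKM. The epithelial sum was 3.89 to 4.65 and 1.54 to 2.22 FPKM, the eosinophil sum 1.84 to 1.9 and 0.201 to 0.941 FPKM, and the basophil sum 0.334 to 0.549 and 0.120 to 0.280 FPKM. Their part in the Cysltr1 values was not tested.

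Cysltr2, which encodes the second cysteinyl leukotriene receptor, lay the other way. It measured 24.5, 28.9 and 26.8 FPKM in the isotype libraries and 65.1, 41.4 and 41.4 FPKM in the DTA-1 libraries, in replicate order, again without overlap. Its log2 fold change was 0.83 ± 0.19 (limma adjusted p = 0.129), and 0.615 without DTA-1 replicate 1. The level of Cysltr2 divided by that of Cysltr1 was 0.211, 0.223 and 0.234 with the isotype and 0.971, 0.445 and 0.434 with DTA-1. The sum of both levels was 141 to 159 FPKM with the isotype and 132 to 137 FPKM with DTA-1. Both genes were thus nearly level in DTA-1 replicate 1, while Cysltr1 exceeded Cysltr2 in every library. The ratio and the sum were chosen after the values were seen and are given without a test.

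**Figure D3:**
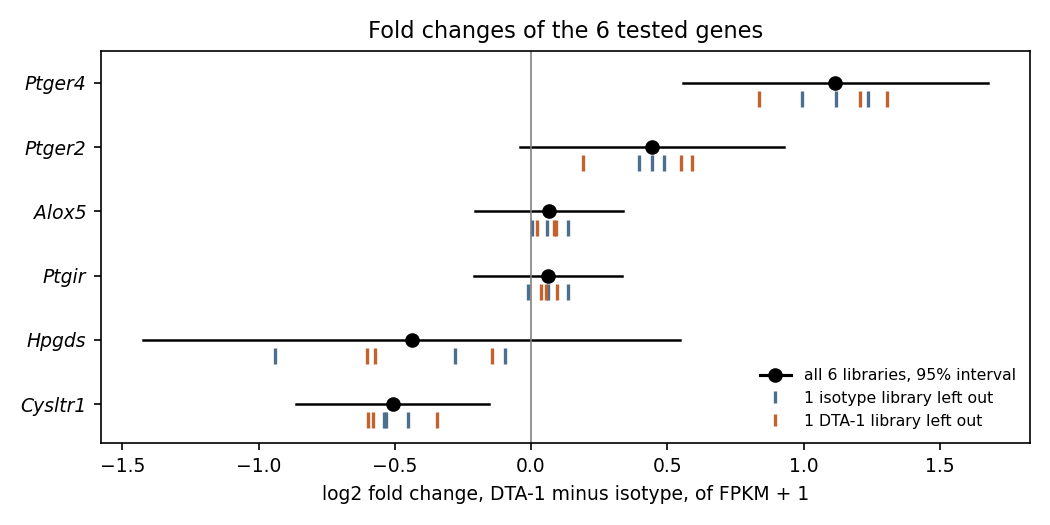
Log2 fold change (DTA-1 minus isotype, on FPKM + 1) of the 6 tested members with its 95% interval from limma (black), and the estimate with each library left out in turn (ticks, blue for an isotype library and orange for a DTA-1 library). The intervals of Ptger4 and Cysltr1 do not cross 0 before adjustment, and leaving out DTA-1 replicate 1 gives the estimates nearest 0 for Ptger4, Ptger2 and Cysltr1.

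Among the prostaglandin enzymes, both cyclooxygenase genes were very low. Ptgs1, the constitutive cyclooxygenase, was listed at 0.0355, 0.0183 and 0.0691 FPKM with the isotype and at 0.0352, 0.0670 and 0 FPKM with DTA-1, in replicate order. That is at most about 4 fragments in any library, and no fold change is given. Ptgs2, the inducible cyclooxygenase (chromosome 1, 150100031 to 150108227), measured 0.0358, 0.345 and 0.117 FPKM in isotype replicates 1, 2 and 3. With DTA-1 it measured 1.33, 0.282 and 0.248 FPKM, about 116, 26.3 and 23.1 fragments. The groups overlapped, and DTA-1 replicate 1 was the single library above 1 FPKM. Under a filter of 0.1 FPKM in 3 libraries, the log2 fold change of Ptgs2 was 0.42 ± 0.23, at an adjusted p = 0.495 in limma.

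Hpgds encodes hematopoietic prostaglandin D synthase (chromosome 6, 65117293 to 65144908). Its levels varied widely between libraries, at 0.548, 3.96 and 2.85 FPKM with the isotype and 0.513, 1.74 and 1.87 FPKM with DTA-1. Both libraries numbered 1 were low, with about 36.9 and 34.8 fragments, and the groups overlapped. The log2 fold change was -0.44 ± 0.43 (limma adjusted p = 0.722), with a 95% interval of -1.42 to 0.55. Without isotype replicate 1 it was -0.94 (adjusted p = 0.274), without DTA-1 replicate 1 -0.14 and without isotype replicate 2 -0.10. Without both replicates numbered 1 the groups did not overlap and the estimate was -0.64 (adjusted p = 0.277). In that reduced set Ptger4 and Ptger2 were higher and Cysltr1 and Hpgds lower without overlap, where 20.8% of all genes tested were higher and 19.9% lower.

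Mast cells are rich in Hpgds, so their markers are given beside it. Of the 8 mast cell markers, 7 stayed under 1 FPKM in every library, and Mcpt4 was listed at 0 throughout. Kit was the exception, at 7.23, 16.0 and 16.6 FPKM with the isotype and 5.52, 11.9 and 11.4 FPKM with DTA-1, low in the same 2 libraries as Hpgds. The summed level of the 8 markers was 7.41 to 16.8 FPKM with the isotype and 5.66 to 12.4 FPKM with DTA-1, and its part in the Hpgds values was not tested.

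In the leukotriene branch, Alox5, the gene of 5-lipoxygenase (chromosome 6, 116410077 to 116461178), was expressed evenly. It measured 21.7, 20.0 and 24.2 FPKM in the isotype libraries and 22.3, 24.4 and 22.2 FPKM in the DTA-1 libraries, in replicate order. The groups overlapped, and the log2 fold change of 0.07 ± 0.12 had a 95% interval of -0.20 to 0.34 (limma adjusted p = 0.859). Alox5ap, whose product presents arachidonic acid to 5-lipoxygenase, was low at 0.120, 0.125 and 0.516 FPKM with the isotype and 1.21, 0.367 and 0.388 FPKM with DTA-1, and was not tested. Ltc4s, the gene of leukotriene C4 synthase (chromosome 11, 50236461 to 50238616), was listed at 0 in all 6 libraries. For a transcript of its length, 3 fragments would be 0.221 to 0.247 FPKM, and an exact 0 in such files can also be a failed estimate.

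By level, the isotype libraries gave the order Cysltr1, Ptgir, Alox5, Ptger4, Ptger2 and Hpgds, with no overlap between neighbours. Below these, Ptgs2, Ptgdr2 and Ptgs1 overlapped one another. With DTA-1, Ptger4 came between Ptgir and Alox5, and its libraries overlapped those of both. Cysltr1 was highest and Ptger2 came after Alox5, each clear of its neighbours, while Hpgds overlapped Ptgs2.

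Profiles over the 6 libraries were compared by the root mean square difference of log2(FPKM + 1), each gene centred on its own mean. Among members, Ptgir and Alox5 were nearest (0.10), and Ptger4 and Hpgds farthest apart (1.06). Ptger4 and Ptger2 differed by 0.38. Over tested genes with a mean of at least 5 FPKM, the gene nearest to Ptger4 was Cptp (0.091), at 8.85, 9.38 and 12.5 FPKM with the isotype and 35.1, 23.4 and 19.1 FPKM with DTA-1. The nearest to Cysltr1 was Pcyox1 (0.024), to Ptger2 Prkcd (0.059), to Hpgds Npc2 (0.104), to Ptgir Gle1 (0.021) and to Alox5 Uxt (0.016). With 6 libraries and 10501 genes tested, such near matches are a description.

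Of 57 other eicosanoid genes found in the tables, 24 were tested and none passed limma's adjusted test in either direction. At an unadjusted p under 0.05, 6 were higher and 2 lower, and without overlap 5 were higher (Mgll, Ptges2, Akr1b3, Cysltr2 and Abcc1) and 3 lower (Ptges3, Lta4h and Mgst2). Over all genes tested, 6.22% were higher and 7.73% lower at that p, and 11.2% were higher and 10.5% lower without overlap. Their median log2 fold change was 0.06. Of the 57 genes, 31 stayed under 1 FPKM in every library. They included the terminal synthases Ptges, Ptgds, Ptgis and Tbxas1, the degrading enzyme Hpgd, and Pla2g4a, the cytosolic phospholipase that releases arachidonic acid.

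Among 6 tested genes of arachidonate release, Mgll, the monoglyceride lipase gene, measured 5.36 ± 1.13 FPKM with the isotype and 8.30 ± 0.872 FPKM with DTA-1 (adjusted p = 0.181). The phospholipases Pla2g12a (46.3 ± 6.98 and 44.7 ± 7.04 FPKM) and Pnpla8 (8.56 ± 2.28 and 9.32 ± 1.21 FPKM) overlapped between groups. Among 7 tested genes of prostanoid synthesis and breakdown, Akr1c18, an aldo-keto reductase gene, measured 5.55, 11.2 and 12.9 FPKM with the isotype and 12.3, 21.6 and 24.7 FPKM with DTA-1. The groups overlapped slightly, and the log2 fold change of 0.93 ± 0.33 had an adjusted p = 0.252 in limma. The estimate was 0.60 without isotype replicate 1. Ptges2, a membrane prostaglandin E synthase gene, measured 6.64 ± 0.598 and 8.40 ± 0.655 FPKM. The abundant Ptges3, whose product is also the chaperone partner p23, measured 145.7 ± 23.6 and 119 ± 5.56 FPKM. Akr1b3, an aldose reductase gene, measured 19.7 ± 9.79 and 30.6 ± 2.45 FPKM, with isotype replicate 2 low at 8.64 FPKM. Its log2 fold change was 0.75, and 0.27 without that library.

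Of the leukotriene pathway, 3 genes beyond the members were tested. Lta4h, which makes leukotriene B4, measured 113, 80.6 and 77.4 FPKM with the isotype and 71.4, 68.8 and 63.9 FPKM with DTA-1, lower in every DTA-1 library, with a log2 fold change of -0.39 ± 0.16 and an adjusted p = 0.330 in limma. Without isotype replicate 1, the highest library, the estimate was -0.21. Mgst2, a glutathione transferase that can form leukotriene C4, was lower in every DTA-1 library too, at 6.52 ± 1.34 and 4.39 ± 0.262 FPKM (adjusted p = 0.220). Its relative Mgst3 measured 2.81 ± 0.595 and 4.03 ± 0.495 FPKM, with overlapping groups.

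Of 8 tested receptors and transporters, Cysltr2 and Abcc1 were higher in every DTA-1 library. Abcc1, an exporter of leukotriene C4, measured 48.1, 35.8 and 40.6 FPKM with the isotype and 82.0, 61.8 and 54.6 FPKM with DTA-1. Its log2 fold change was 0.65 ± 0.18, with an adjusted p = 0.166 in limma. The estimate was 0.485 without DTA-1 replicate 1. The leukotriene B4 receptor gene Ltb4r1 had a mean near that of Cysltr1 with the isotype, at 125 ± 36.2 and 152.9 ± 24.0 FPKM, and Gpr132, a receptor for oxidized fatty acids, measured 66.5 ± 16.4 and 70.8 ± 10.7 FPKM. Both overlapped between groups. Ptgdr, Ptger1, Alox5ap and the genes given as under 1 FPKM were named after their values were seen.

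**Figure D4:**
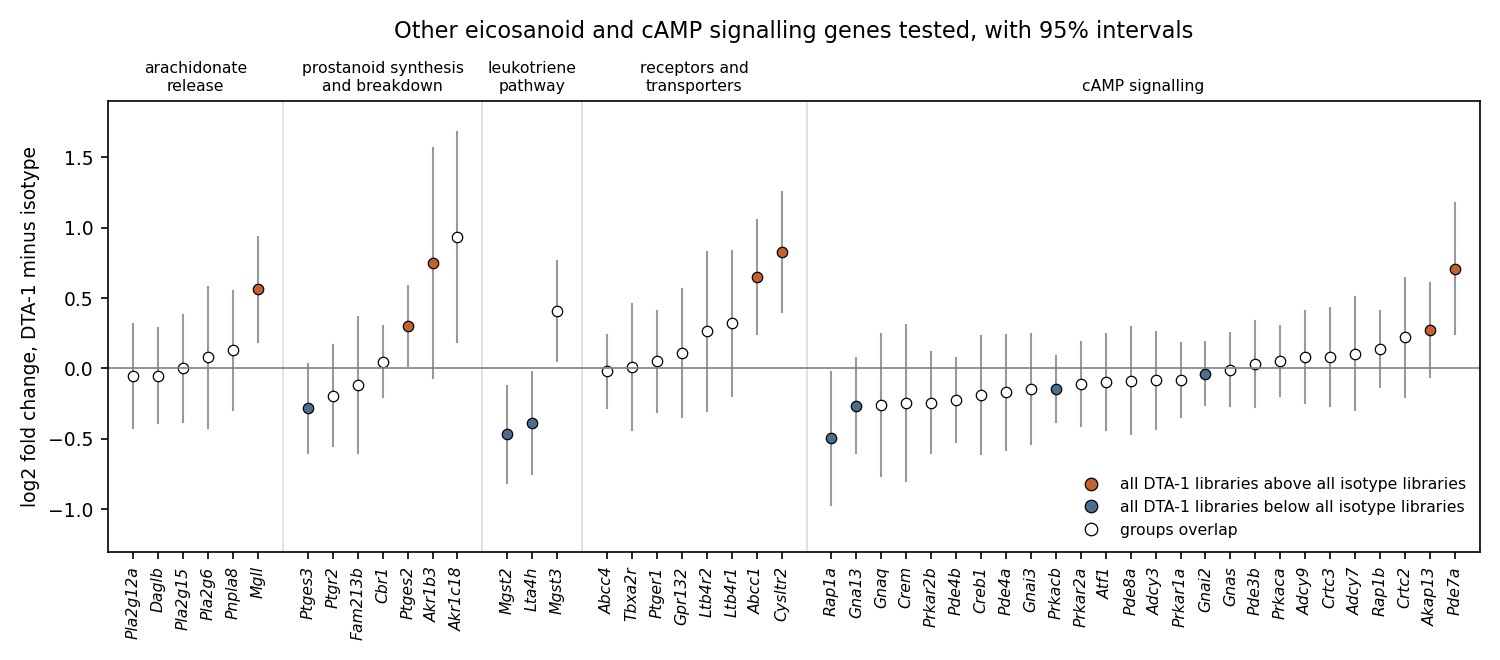
Log2 fold change (DTA-1 minus isotype, on FPKM + 1) with its 95% interval for the 24 other eicosanoid genes and 26 cAMP signalling genes tested, sorted within each list. Filled points mark genes whose groups do not overlap; Akr1c18, Cysltr2, Akr1b3, Pde7a and Abcc1 lie highest and Rap1a lies lowest, at -0.50, where Akr1b3 (0.27) and Rap1a (-0.26) lie nearer 0 without isotype replicate 2.

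Of 31 listed genes of the cAMP signalling downstream of these receptors, 26 were tested and none passed limma's adjusted test. At an unadjusted p under 0.05, 1 was higher (Pde7a) and 1 lower (Rap1a), against 6.22% and 7.73% of all genes tested. Without overlap, 2 were higher (Pde7a and Akap13) and 4 lower (Gnai2, Gna13, Prkacb and Rap1a), against 11.2% and 10.5% of all genes tested. The median log2 fold change was -0.09, and 17 of the 26 estimates were below 0. Gnas, the gene of Gs alpha, measured 396.9 ± 20.8 FPKM with the isotype and 394.9 ± 34.9 FPKM with DTA-1, and Gnai2, a Gi alpha gene, 287 ± 2.04 and 279.8 ± 6.29 FPKM. Pde7a, a phosphodiesterase that degrades cAMP, measured 9.50, 17.9 and 15.1 FPKM in the isotype libraries and 22.8, 23.0 and 23.3 FPKM in the DTA-1 libraries. All DTA-1 values lay above the isotype values, with a log2 fold change of 0.71 ± 0.20 and an adjusted p = 0.179 in limma, and leaving out isotype replicate 1 gave 0.465. Rap1a, a small GTPase on the Epac arm of cAMP signalling, measured 114.7 ± 35.9 and 79.0 ± 8.69 FPKM, with isotype replicate 2 high at 156 FPKM. Its log2 fold change of -0.50 was -0.26 without that library. The Epac genes Rapgef3 and Rapgef4 were low and were not tested. Mean Rapgef3 was 0.258 FPKM with the isotype and 0.129 FPKM with DTA-1, and mean Rapgef4 0.127 and 0.0534 FPKM. Both were named after their values were seen.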

How the data were processed

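RNA from 6 libraries (3 per group) was made into directional libraries with the NEBNext Ultra II kit, per the labels' protocols. The submitters' processing notes name TopHat and mm10. No version, quantifier, annotation or use of strand is stated there or in the labels. The authors deposited 1 value per gene and library without naming the unit. The deposited values were taken as FPKM, since their totals differ (574195 to 606724) and low values step with inverse transcript length. These steps gave the depth, from which fragments per member were estimated with lengths from GENCODE M21.

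A gene was tested if 3 or more libraries reached 1 FPKM (10501 genes). The fit was limma 3.58.1 under R 4.3.3 on log2(FPKM + 1), with group as the single term, trended and robust moderation, 2-sided p and Benjamini-Hochberg adjustment at a threshold of 0.05. Intervals are 95% and unadjusted. The script was tested on simulated data. Members and lists were chosen with earlier results of these data known. Of the 58 other eicosanoid genes listed, Ptgr3 was not found, and Prxl2b is listed as Fam213b. Named beside the members are, for each list, genes past the threshold, the 2 of lowest p and the 2 of highest level, and for each tested member the nearest profile. Alternatives covered pseudocount, filter, scaling, moderation, weights, the replicate block and leaving out libraries. Groups follow the sample titles, from which some treatment tags differ. Figures were drawn with matplotlib 3.10.9.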

Additional observations from a re-analysis of the deposited data

How the results depend on the processing

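No member passed the adjusted limma test under any alternative except with library quality weights, where 1 was higher (Ptger4, log2 fold change 0.81, adjusted p = 0.0317). Over its 18 alternatives the adjusted p of Ptger4 ran from 0.0317 to 0.276, and its log2 fold change from 0.71 to 1.31. With the weights, 2 other eicosanoid genes were higher (Abcc1 and Cysltr2) and 1 lower (Mgst2), and 1 cAMP gene was higher (Pde7a), while over all genes 161 were higher and 314 lower, against 3 and 1 without weights. Deviations from the group mean correlated at 0.393, -0.101 and -0.129 between libraries numbered 1, 2 and 3. Across numbers, isotype replicate 2 correlated with DTA-1 replicate 3 at 0.485, and isotype replicate 3 with DTA-1 replicate 2 at 0.385. The numbers thus matched the closest libraries for replicate 1 only. Whether any libraries shared a mouse or culture is not stated and was not tested. With the replicate block, 59 genes were higher and 126 lower in all, no member passed (Ptger4 adjusted p = 0.0508), and 1 other eicosanoid gene was higher (Akr1c18, adjusted p = 0.0327). The direction of each tested member held under every alternative run, except that Ptgir lay at -0.012 without isotype replicate 2 and between that and 0.136 with each library left out. Hpgds gave no value under a minimum mean of 5 FPKM. Leaving out both replicates numbered 1 was chosen after seeing the data. Scaling to equal totals moved the median of all genes to -0.016, from 0.0139. DESeq2 was not run, since the values are not counts. At this depth Ptgdr2, Ptgs1 and Ltc4s had at most 6 fragments in any library.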
